A study of Mus musculus with 8 samples.

Results

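Transfer RNA genes were among the genes in which adenosines resisted the chemical conversion that GLORI uses to find N6-methyladenosine (m6A). Genes were chosen by name alone: those in the 4 TBLC site lists whose symbol starts with n-T, or with Trna followed by a letter and a hyphen. This gave 76 nuclear tRNA genes of 10609 named genes and 101 of the 85953 listed sites. Of these sites, 52 were listed in all 4 TBLC libraries, 12 in 3, 19 in 2 and 18 in 1. The amino acid and the anticodon were read from each gene's name.

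In GLORI, adenosine without a methyl group is deaminated and sequenced as G, and the level of a site is the share of its A+G reads that remained A. There are 8 libraries from mouse cells, 2 in each of 4 groups. TBLC, kept in MYCP medium, were given siRNA that was either a control (siNC) or directed at Virma (siVirma), a scaffold subunit of the complex that writes m6A on mRNA. EPSC had the dCas13b-FTO system, an RNA-guided demethylase, and their libraries, named sgCtrl for the control and sgGata6 for Gata6, are pooled to 1 value per group. No group is free of siRNA or guide, mRNA was purified before the reaction in every group. The labels do not tell if the replicates are separate cultures, so p-values cover only the spread between libraries, and that spread may be technical.

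Transfer RNAs bring amino acids to the ribosome and read the codon with their anticodon. They are among the most heavily modified RNAs. In tRNAs whose anticodon ends in U, the adenosine just 3′ of the anticodon is known to carry N6-threonylcarbamoyladenosine. In serine tRNAs whose anticodon ends in A, and in selenocysteine tRNA, that adenosine is known for N6-isopentenyladenosine. The T loop of many tRNAs carries N1-methyladenosine, and serine tRNAs have a long variable arm between the anticodon arm and the T arm. Enzymes other than the mRNA m6A writer make these modifications. The reaction spares any adenosine with a blocked amino group, so the word level is used here for unconverted A of any kind. Which modification a site carries was not measured, and no site was placed within the tRNA because no mm39 sequence was used here. Many tRNA genes are near-identical copies, so which copy a read came from is uncertain, and sites of such copies are not independent.

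The lists hold 4764955 and 4367999 A+G reads for siNC replicates 1 and 2, and 3423268 and 2655963 for siVirma. The tRNA genes held 9685 and 7464 of these reads in siNC and 11768 and 10224 in siVirma, or 0.203%, 0.171%, 0.344% and 0.385%. Both shares were higher in siVirma, where the total over all listed sites was lower. Virma itself had a gene coverage, a deposited signal per gene, of 40.3 and 38.2 in siNC and 24.05 and 22.8 in siVirma, 0.531-fold relative to the median gene (limma adjusted p = 0.000403). All 8 pluripotency markers were listed in TBLC, as were 10 of 18 genes of the 2-cell stage program, with Dux and Obox3 among those not listed. All 10 fibroblast markers were listed too. The 6 listed in every library had a summed coverage of 309 and 289 for siNC, and 552 and 445 for siVirma. By limma on coverage, 5 of those 6 were called higher, against 9.15% of 6787 genes. The part of these markers in the tRNA values was not tested.

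The 76 genes were spread unevenly over 19 amino acids, selenocysteine included. Lysine had the most, 18 genes with 26 sites, and 16 of these genes had the anticodon CTT, for which the name table used here holds 24 genes. Serine followed with 15 sites in 8 genes of 22 in the name table, and arginine with 12 sites in 10 genes of 24. Methionine had 7 sites in 6 genes, asparagine 8 in 4, isoleucine 5 in 4 and threonine 5 in 3. Glycine and valine, with 28 and 24 genes in the name table, had no listed site. Cysteine, the largest family there with 56 genes, had 1, n-TCgca56. The rest of the families were thinly covered: glutamine and leucine had 4 genes each, and alanine, aspartate, glutamate, histidine, phenylalanine, proline, selenocysteine, tryptophan and tyrosine had 1 or 2. Chromosome 13 held 19 of the genes and 28 of the sites. Every listed site had 15 or more A+G reads, 5 or more A reads and a level of 0.1 or more, in genes with a conversion rate of about 0.80 or more, so a gene that is not listed need not be fully converted.

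By the last base of the anticodon, 60 of the 101 sites lay in genes with U there, 20 in genes with A and 21 in genes with C or G. Of the sites in all 4 libraries, 38 were in the U group, 9 in the A group and 5 in the C or G group. The median level of the U group was 0.787 and 0.802 for siNC, and 0.838 and 0.763 for siVirma. For the A group it was 0.737 and 0.788 for siNC, and 0.743 and 0.797 for siVirma. The C or G group had medians of 0.286, 0.296, 0.296 and 0.311 in the same order. Of its 5 sites, none had a mean siNC level of 0.75 or more, whereas 20 of 38 did in the U group and 5 of 9 in the A group. These groups differ in how many lysine copies they hold, and the medians are descriptions without a test.

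At the highest sites nearly all reads were unconverted. Selenocysteine tRNA, the product of n-TUtca2, which reads UGA stop codons for selenoprotein synthesis, was also the most deeply read (chromosome 7, position 19035207, plus strand, mm39). Its level was 0.987 and 0.989 for siNC, and 0.989 and 0.989 for siVirma, from 3042, 2524, 3960 and 3520 reads. Thus the 4 libraries differed by less than 0.01 at the site where counting error is smallest. Among lysine genes, the 5′ site of n-TKctt6 stood at 0.971, 0.972, 0.976 and 0.989 from 145 to 208 reads. The single site of n-TKctt8 was at 0.990, 0.932, 0.977 and 0.963, and that of n-TKctt3 at 0.931, 0.982, 0.985 and 0.937. Trnak-cuu_1 had 1, 0.944, 1 and 0.955, from no more than 25 reads each. Elsewhere n-TKctt10, n-TKctt15 and n-TKctt19 ranged from 0.872 to 1 over all 4 libraries. At n-TKctt3, n-TKctt8 and Trnak-cuu_1 the siNC and siVirma libraries overlapped.

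Counted over the series, 247 of the 23354 sites listed in all 4 libraries had a level of at least 0.9 in every library, which is 1.06%. Among the 52 tRNA gene sites the number was 13, or 25%, each in a different gene. Of these, 6 were lysine genes, 3 serine, 2 methionine, 1 isoleucine (n-TIaat3: 0.910, 0.933, 0.913 and 0.946) and 1 selenocysteine. The methionine sites were the 5′ site of n-TMcat10 and the single site of n-TMcat4. None of the 12 mitochondrial tRNA sites, which served as a comparison of tRNAs modified in another compartment, reached that level in every library. The counts above require a high level in siVirma as well, where most sites fell. Among the sites listed in siNC replicates 1 and 2, 29.2% and 22.1% of tRNA gene sites were at 0.9 or more, against 8.15% and 7.93% of all sites. In siVirma these shares were 23.3% and 29.7% against 1.47% and 1.49%.

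Arginine genes split by anticodon. In n-TRcct3, n-TRcct1 and n-TRcct2, the site that was single or nearer the 5′ end had mean siNC levels of 0.929, 0.787 and 0.749. By contrast n-TRacg6 had 0.280 and 0.273 in siNC and 0.292 and 0.311 in siVirma, from 490 to 686 reads, and n-TRtcg4 had 0.286, 0.296, 0.296 and 0.299. The sites of n-TRtcg2 and n-TRtct2 also lay low, at siNC means of 0.383 and 0.288. The last of these has an anticodon ending in U, so a low level was not confined to the C or G group. Outside arginine, low single sites were those of n-TCgca56 (0.217, 0.235, 0.163 and 0.239) and histidine n-THgtg5 (0.263, 0.214, 0.226 and 0.233). Isoleucine n-TIaat2 had a 5′ site at 0.780, 0.643, 0.857 and 0.621, with overlapping groups. Glutamine n-TQttg1 was also intermediate, at 0.632, 0.686, 0.605 and 0.762, as did n-TMcat14 at 0.667, 0.529, 0.760 and 0.667. The single site of n-TMcat8 had 0.33, 0.292, 0.423 and 0.357. The single site of serine n-TSgct6 had 0.832 and 0.872 in siNC and 0.789 and 0.758 in siVirma.

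**Figure D1:**
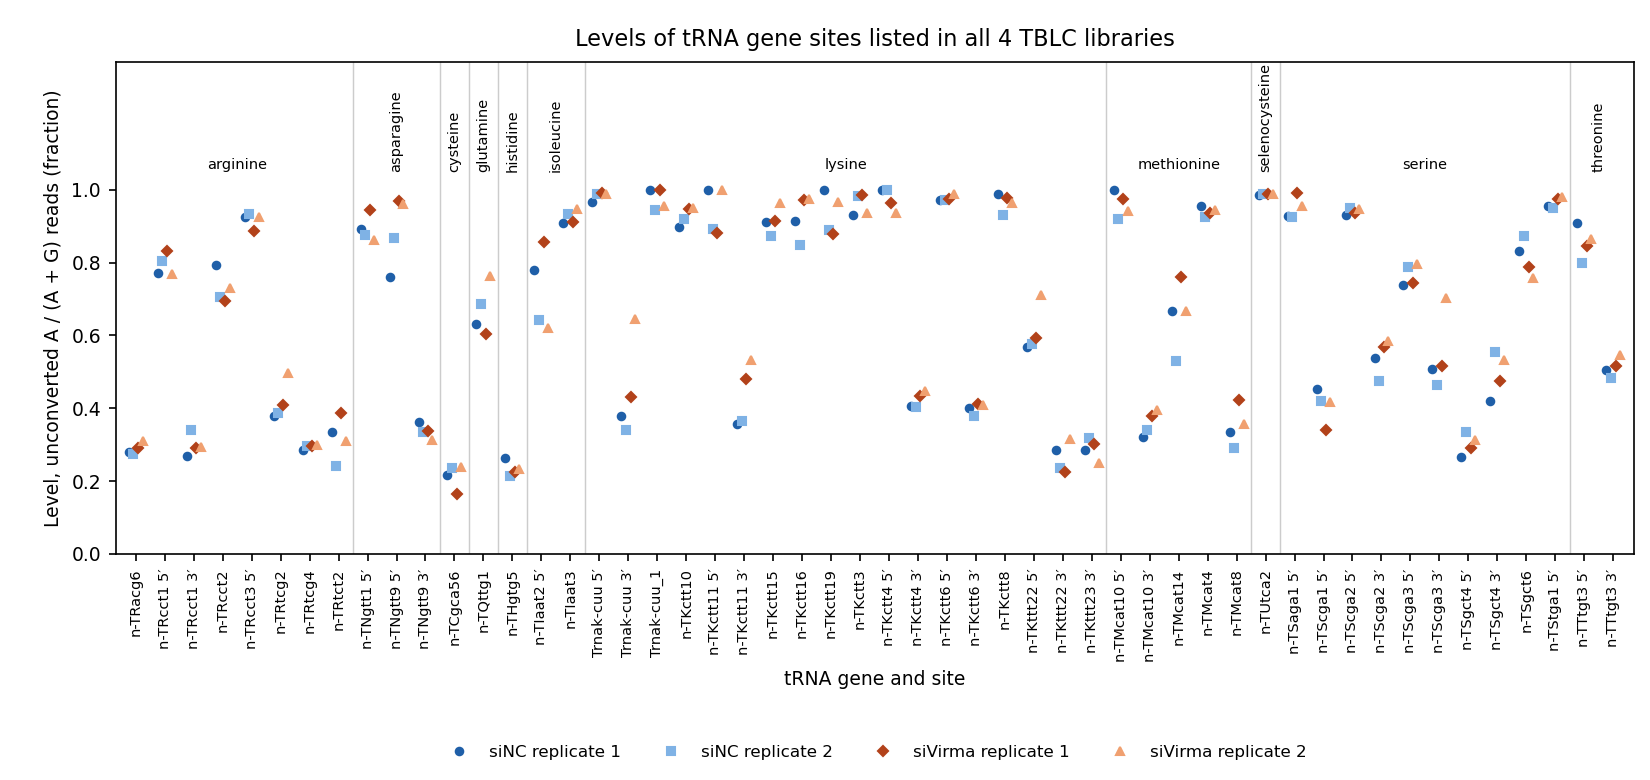
Level (fraction of A+G reads left as A) of each of the 52 tRNA gene sites listed in all 4 TBLC libraries, grouped by amino acid, with a point per library. Levels run from 0.224 to 1 in lysine genes over the 4 libraries, from 0.267 to 0.991 in serine genes and from 0.292 to 1 in methionine genes, and selenocysteine n-TUtca2 sits at 0.987 to 0.989 in every library.

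Genes outside this set were read more thinly. The best covered was n-TRccg1, with levels of 0.259 in siNC replicate 1 and 0.325 and 0.308 in siVirma from 438 to 508 reads; it was not listed in siNC replicate 2. For the amino acids with no site in all 4 libraries, the gene with the most reads had 16 to 69 reads in any library. These were n-TAtgc5 (0.208), n-TDgtc16 (0.116 and 0.213 in siVirma only), n-TEctc4 (0.409 and 0.565 in siNC only), n-TLcag4 (0.353 and 0.474) and n-TFgaa4 (0.375). The others were n-TPtgg8 (0.438 and 0.556), n-TWcca7 (0.154 and 0.128) and n-TYgta8 (0.375 and 0.429 in siNC, 0.250 in siVirma). Of the partly listed genes of other amino acids, n-TQttg6 had 0.544 and 0.656, n-THgtg1 had 0.400, n-TIaat16 had 0.692 and 0.621 in siNC and 0.524 in siVirma, and n-TMcat11 had 0.444 and 0.25 in siVirma. The 3′ sites of n-TKctt7 (0.5 and 0.476 in replicate 1 of each group), n-TNgtt4 (0.391 and 0.24 in siNC) and n-TTtgt2 (0.444 in siNC replicate 2, 0.389 and 0.444 in siVirma) were read 18 to 25 times in a library. The lowest reads of these listings are close to the calling minimum, so presence in a single list carries little weight.

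In 25 of the 76 genes 2 sites were listed, and their spacing took only 2 values. In 18 genes the sites were 21 nt apart, and in 7 genes 30 nt. All 7 genes with the wider spacing were serine genes, and none of the 18 was. The 18 genes belonged to arginine, asparagine, isoleucine, lysine, methionine and threonine, and each had an anticodon ending in U. No gene of the C or G group had more than 1 site. The spacing used only the coordinates and strand of the listed sites. Genes of 1 family share most of their sequence, so the 25 genes are not independent observations.

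Within a pair, the 5′ site was generally the less converted one. It was higher than its partner in 16 of 17 pairs in siNC replicate 1, 13 of 15 in siNC replicate 2, 19 of 21 in siVirma replicate 1 and 17 of 20 in siVirma replicate 2. Over the pairs 21 nt apart, the median level was 0.910, 0.867, 0.887 and 0.895 at the 5′ site and 0.377, 0.340, 0.405 and 0.396 at the 3′ site. Both sites were listed in all 4 libraries in 12 genes. In 11 of these the 5′ site was the higher one in every library, and in 1, n-TSgct4, the 3′ site was.

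Individual pairs show the size of that gap. The sites of n-TKctt6 (chromosome 13, positions 4274183 and 4274162, minus strand) had 0.971, 0.972, 0.976 and 0.989 at the 5′ side and 0.401, 0.378, 0.412 and 0.408 at the 3′ side. In n-TMcat10 the 5′ site had 1, 0.920, 0.974 and 0.943 and the 3′ site 0.321, 0.339, 0.379 and 0.395. In n-TRcct1 the values were 0.771, 0.803, 0.831 and 0.769 against 0.267, 0.340, 0.290 and 0.295. Threonine n-TTtgt3 had 0.910, 0.8, 0.844 and 0.864 against 0.505, 0.483, 0.516 and 0.546. In none of these 4 genes did the ranges of the 2 sites overlap. The pairs of n-TKctt4, n-TKctt11, Trnak-cuu, n-TNgtt9 and n-TKttt22 had the same order, and over all 9 such pairs the gap ranged from 0.282 to 0.679 within a library. The 3′ sites had more reads than the 5′ sites in every library in 7 of the 9 genes, with sums of 1198, 953, 1348 and 1157 reads against 820, 690, 846 and 753.

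Among lysine pairs, the 5′ site also differed between anticodons. Lysine genes with a single site are left out here, and not all of those with the CTT anticodon had a high level. The 5′ site of n-TKttt22, whose anticodon is TTT, was at 0.568, 0.576, 0.592 and 0.711, below the 5′ sites of n-TKctt4, n-TKctt6, n-TKctt11 and Trnak-cuu in every library. In n-TKttt23 the 5′ site was lower still, at 0.342 in siNC replicate 2 and 0.200 and 0.172 in siVirma, and there the 3′ site was the higher one in both siVirma libraries, at 0.301 and 0.250. Its 3′ site had 0.286 and 0.319 in siNC.

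Serine pairs, 30 nt apart, were less uniform. In n-TScga2 the 5′ site had 0.932, 0.95, 0.936 and 0.947 and the 3′ site 0.539, 0.474, 0.568 and 0.585, from 135 reads or more. In n-TScga3 the values were 0.737, 0.788, 0.743 and 0.797 against 0.507, 0.464, 0.516 and 0.702. The order was the opposite in n-TSgct4, a serine gene with an anticodon ending in U, at 0.267, 0.33, 0.291 and 0.311 against 0.420, 0.554, 0.475 and 0.532. The 5′ site of n-TScga1 lay at 0.452, 0.419, 0.341 and 0.417, below that of n-TScga2, which has the same anticodon. The 3′ site of n-TStga1 was listed only in siVirma replicate 2, at 0.481 from 158 reads, while its 5′ site had 198 to 334 reads in each library. In n-TStga3 the 5′ site had 0.688 in siNC replicate 1 and 0.931 and 0.850 in siVirma, from 16 to 29 reads.

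**Figure D2:**
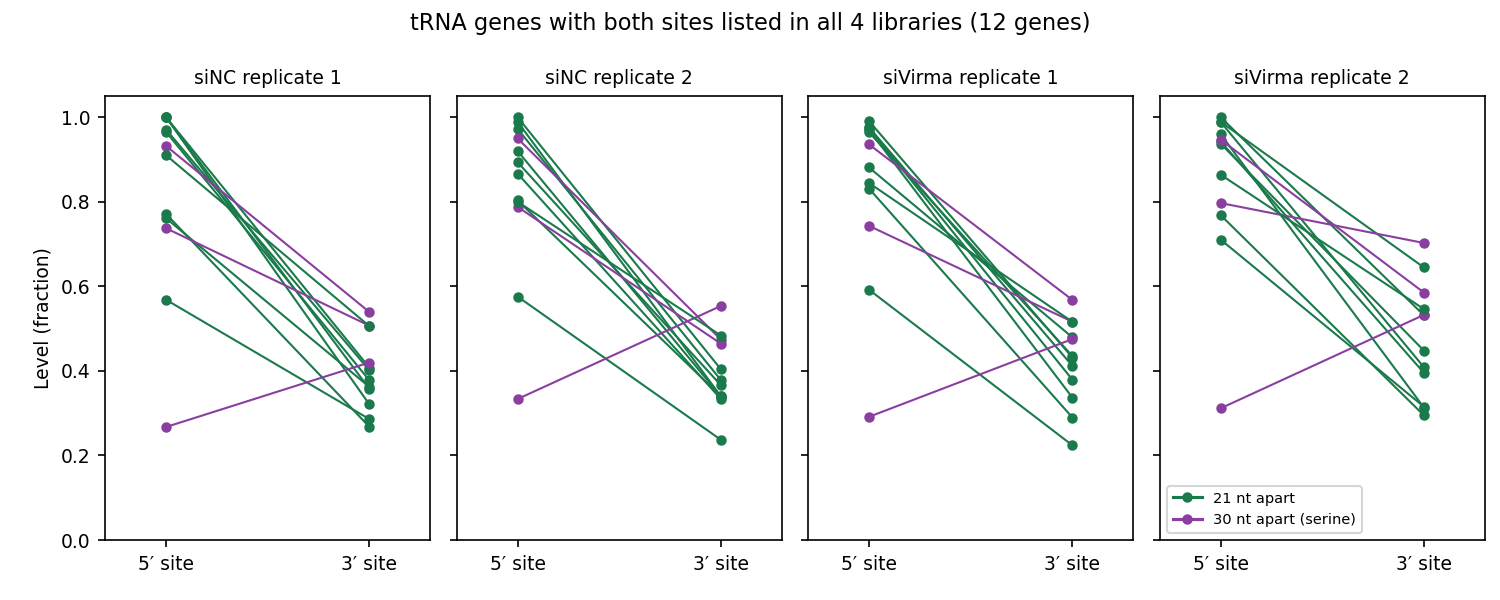
Level (fraction) of the 5′ and the 3′ site of the 12 tRNA genes with both sites in every list, a panel per TBLC library, each line a gene. All 9 pairs that are 21 nt apart slope down in every library, and of the 3 serine pairs, 30 nt apart, n-TSgct4 slopes up.

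The comparison of siVirma with siNC addressed how Virma depletion changes the m6A landscape of TBLC. At tRNA genes the sites were mostly retained and their levels changed little. Of 57 tRNA gene sites listed in both siNC libraries, 52 were listed in both siVirma libraries (91.2%) and 2 in neither (3.51%). Over all 49554 such sites of the series the shares were 47.1% and 33.1%. The number of listed tRNA gene sites was 72 and 68 for siNC, and 86 and 74 for siVirma, against 66350, 61957, 41082 and 34739 over all genes. Listing depends on the level as well, so sites were also split by their mean siNC level. Below 0.5, 21 of 25 tRNA gene sites were in both siVirma lists, against 22.1% of all sites. From 0.5 to 0.9 it was 14 of 15 against 81.7%, and from 0.9 it was 17 of 17 against 92.7%.

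For the test, 47 of the 52 sites in all 4 libraries had at least 20 A+G reads in each. The background was almost uniformly downward, since edgeR called 91.6% of 20414 tested sites lower and 0.147% higher. Of the 47 tRNA gene sites, 1 was called lower and 5 higher. The median difference in mean level, siVirma minus siNC, was 0.0128 for the tRNA gene sites, 35 of which had a higher mean in siVirma and 12 a lower one. Without siVirma replicate 2 the split was 29 higher and 20 lower. Over all tested sites the median difference was -0.328. The tRNA differences ranged from -0.0786 to 0.179. Both siVirma libraries lay above both siNC libraries at 21 tRNA gene sites, below them at 3, and overlapped them at 23. Over all 20414 tested sites, both siVirma libraries lay above at 0.715% and below at 19350 sites, and overlapped the siNC libraries at 918.

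The contrast was also present within each class of siNC level. Among sites with a mean siNC level below 0.5, the median difference was 0.0225 for 20 tRNA gene sites and -0.214 for 6218 sites in all. From 0.5 to 0.9 it was 0.0259 for 12 and -0.386 for 11009, and from 0.9 it was 0.00397 for 15 and -0.335 for 3187. In the 3 classes edgeR called 81.8%, 97.7% and 89.6% of all sites lower, and 0 of 20, 0 of 12 and 1 of 15 tRNA gene sites. By position, the median difference was 0.00908 for 18 sites at the 5′ side, 0.0358 for 13 at the 3′ side and 0.0169 for 16 single sites. By anticodon, 24 of 34 sites of the U group, 7 of 9 of the A group and 4 of 4 of the C or G group had a higher mean in siVirma.

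**Figure D3:**
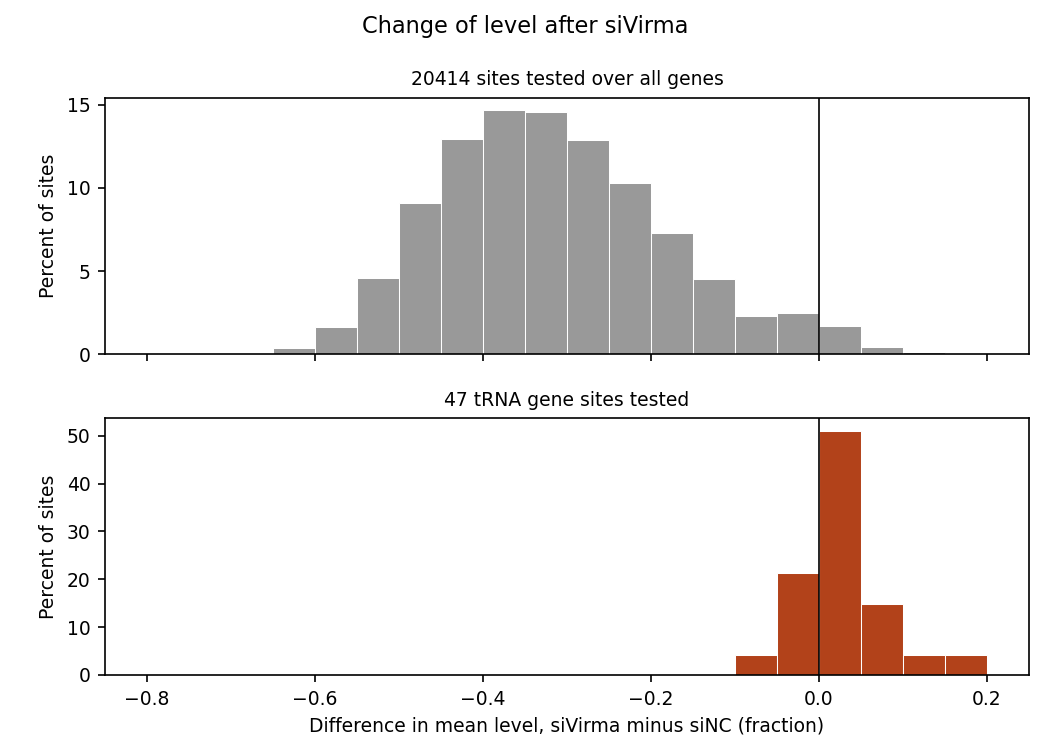
Distribution of the difference in mean level (siVirma minus siNC, fraction) over the 20414 sites tested in the series and over the 47 tRNA gene sites, as percent of sites in bins of 0.05. The median is -0.328 for all sites and 0.0128 for tRNA gene sites.

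The 5 sites that rose were in asparagine, lysine and serine genes. The 5′ site of n-TNgtt9 (chromosome 2, position 18591891, minus strand) had 0.761 and 0.867 in siNC and 0.970 and 0.960 in siVirma, from 25 to 46 reads. The change in log2 odds of A to G was 2.63 with an SE of 0.84 (edgeR adjusted p = 0.00366), and its 3′ site had 0.362 and 0.33 against 0.337 and 0.313. The 3′ site of Trnak-cuu (chromosome 3, position 3264095, plus strand) had 0.377 and 0.340 in siNC and 0.431 and 0.644 in siVirma (log2 odds 1.02, SE 0.41, edgeR adjusted p = 0.0187). Its 5′ site had 0.965 and 0.989 against 0.991 and 0.989 (edgeR adjusted p = 0.276). The groups did not overlap at either called site, and siVirma replicate 2 set most of the difference in Trnak-cuu: without it the difference was 0.0729 and the adjusted p 0.402.

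The other 3 rises were at sites already above 0.84 in siNC. In n-TKctt16 the level was 0.913 and 0.848 for siNC, and 0.973 and 0.976 for siVirma (log2 odds 2.15, SE 0.91, edgeR adjusted p = 0.0271). The 5′ site of n-TStga1 (chromosome 13, position 23702352, plus strand) had 0.955 and 0.949 against 0.976 and 0.979, from 198 to 334 reads (log2 odds 1.10, SE 0.47, edgeR adjusted p = 0.0258). The 5′ site of n-TSaga1 had 0.929 and 0.925 against 0.991 and 0.955 (log2 odds 1.55, SE 0.73, edgeR adjusted p = 0.0426); without siVirma replicate 1 the difference of 0.0457 was 0.0276. The site called lower, the 5′ site of n-TKctt4, had 0 G reads of 38 and of 36 in siNC, and 1 of 28 and 2 of 32 in siVirma (edgeR adjusted p = 0.0296), so the call rests on 3 reads. The largest difference downward was at n-TSgct6, from 0.852 ± 0.0286 to 0.773 ± 0.0222 (SD, n = 2 each), with no overlap of the libraries (edgeR adjusted p = 0.057). Each of these 6 calls was lost in at least 2 of the 4 fits that left out 1 library, at edgeR adjusted p-values of 0.055 to 0.414. Calls at n-TStga1 and n-TKctt4 were lost without any 1 of the libraries, at n-TNgtt9 without either replicate 1, at n-TKctt16 in every such fit but that without siNC replicate 1, at Trnak-cuu in every one but that without siVirma replicate 1, and at n-TSaga1 in every one but that without siVirma replicate 2.

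With reads summed per gene, 35 tRNA genes could be tested, where edgeR called 93.8% of 5642 genes lower and 0.177% higher. None of the 35 was called lower, 0 were lower at an unadjusted p under 0.05, and limma called 1 and DESeq2 0. The 4 called higher were Trnak-cuu, n-TKctt16, n-TSaga1 and n-TStga1. Trnak-cuu, the only one of these with both its sites in the fit, had 0.780 and 0.75 in siNC and 0.810 and 0.876 in siVirma (log2 odds 0.69, SE 0.29, edgeR adjusted p = 0.0261). Its call was lost without siNC replicate 2 (adjusted p = 0.113) and without siVirma replicate 2 (adjusted p = 0.292), and edgeR called 1 to 3 tRNA genes higher when a library was left out. The median gene difference was 0.0188, against -0.335 over all genes. Both siVirma libraries lay above both siNC libraries in 14 of the 35 genes and below them in 3. Over all 5642 genes tested, they lay above in 0.567% and below in 5382 genes. With its 2 sites summed, n-TNgtt9 was among the 3, at 0.455 and 0.444 in siNC and 0.424 and 0.399 in siVirma (edgeR adjusted p = 0.313). At n-TUtca2 the mean level over 2 libraries was 0.988 with an SD of 0.00141 for siNC, and 0.989 with an SD of 0.000156 for siVirma.

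Mitochondrial tRNA genes, whose transcripts come from mitochondrial DNA, were listed too, and most changed little. Of their 12 tested sites 0 passed by edgeR, limma or DESeq2, and 0 had an unadjusted p under 0.05 in any of these; edgeR called 1 when either group's replicate 1 was left out, and 2 when siNC replicate 2 was. The median difference was -0.0058. At TrnS1 the level was 0.897 and 0.888 for siNC, and 0.890 and 0.894 for siVirma, from 1967 to 2757 reads. The difference between the nuclear and the mitochondrial tRNA genes was not tested.

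Gene coverage gave no common direction for the tRNA genes. By limma on log2 coverage centred on the median gene, 9.15% of 6787 genes were called higher in siVirma and 12.4% lower. Of 40 tRNA genes, 3 were called higher and 1 lower, both smaller shares than over all genes. Coverage of n-TUtca2 was 2241 and 1898 for siNC, and 2995 and 2657 for siVirma (1.22-fold, limma adjusted p = 0.0248). For n-TCgca56 it was 85.3 and 79.1 against 113.9 and 109.7 (1.21-fold, limma adjusted p = 0.0234), and for n-TScga3 it was 91.3 and 75.1 against 131.5 and 100.1 (1.23-fold, limma adjusted p = 0.0456). Coverage of n-TKctt11 was 37.3 and 43.4 against 39.7 and 31.7, with overlapping libraries, and was called lower only after centring (0.786-fold, limma adjusted p = 0.0352). Before centring, the median gene was higher in siVirma by 0.17 in log2 coverage; without centring 8 tRNA genes were called higher and 0 lower. The counts also depended on single libraries: without siNC replicate 1 they were 10 higher and 1 lower, without siNC replicate 2 they were 0 and 10, without siVirma replicate 1 they were 0 and 0, and without siVirma replicate 2 they were 2 and 2. Each of the 4 named calls was lost in 3 of these 4 fits, and held only without siNC replicate 1. The median log2 difference was -0.01 for tRNA genes and -0.04 over all genes. In bulk libraries from purified mRNA, more tRNA per cell, other cells present and more tRNA left by the purification cannot be told apart.

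The deposited conversion rate, given per gene in each list, was low for tRNA genes. Its median over tRNA genes was 0.897 and 0.906 for siNC, and 0.923 and 0.906 for siVirma, against 0.983, 0.983, 0.988 and 0.988 over all genes. A rate under 0.95 was found in 76.4%, 77.4%, 66.2% and 77.8% of the tRNA genes and in 4.42%, 4.21%, 1.62% and 1.87% of all genes. Of the genes with a rate under 0.9, tRNA genes were 29 of 75 and 26 of 71 in siNC and 27 of 38 and 26 of 40 in siVirma. No source used here says how the authors computed the rate. Whether unconverted A at the listed sites enters it was not tested, so the low rate is not shown to be a trait apart from those sites.

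Among the 40 tRNA genes with a site in all 4 libraries, the lowest mean rate was in a lysine gene. For n-TKctt4, with 2 listed sites, the rate was 0.825 and 0.813 for siNC, and 0.824 and 0.807 for siVirma. The highest of these 40 were those of n-TCgca56 (0.981, 0.981, 0.982 and 0.982) and n-THgtg5 (0.983, 0.977, 0.984 and 0.986), which also had the lowest mean siNC levels among sites in all 4 libraries. Selenocysteine n-TUtca2 was at 0.893, 0.894, 0.896 and 0.896. The listed rate was higher in both siVirma libraries than in both siNC libraries for 95.8% of 6787 genes, and for 12 of 40 tRNA genes. The median difference was 0.00254 for tRNA genes and 0.00651 over all genes. The rates are given as a description, and their difference was not tested.

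**Figure D4:**
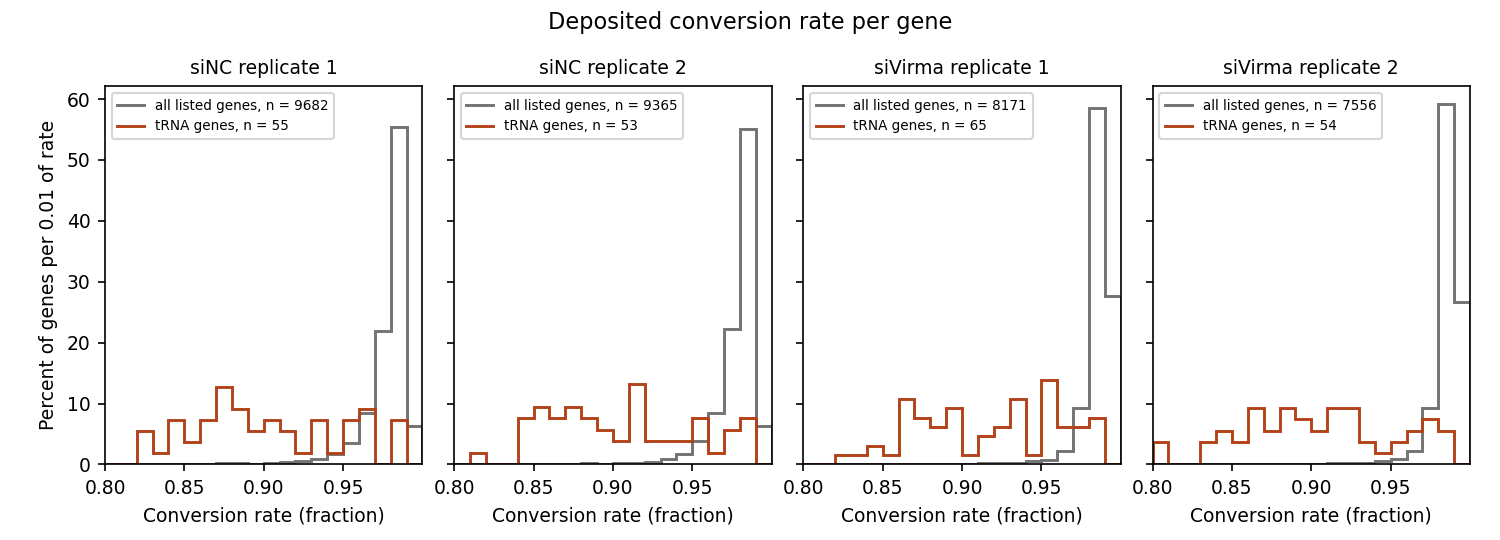
Share of genes (percent) by deposited conversion rate (fraction, bins of 0.01) for all listed genes and for tRNA genes, a panel per TBLC library. The median is 0.983 to 0.988 for all genes and 0.897 to 0.923 for tRNA genes, which spread down to 0.803.

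Genes that encode the proteins acting on tRNAs fell in level about as often as other genes. For these genes, fell refers to the level at their listed sites and not to gene coverage. Of 81 such genes tested in lists of modification, processing, transcription and charging factors, 80 were called lower by edgeR and 0 higher (0 at an unadjusted p under 0.05, 0 by limma and 0 by DESeq2), near the 93.8% of all genes. Their median level in siVirma was 42.9% of siNC, against 44.9% over all genes tested. For the makers of the modified adenosines beside the anticodon only 2 genes could be tested. Trmo, which methylates N6-threonylcarbamoyladenosine, fell from 0.786 ± 0.0739 to 0.292 ± 0.066 (SD, n = 2 each, edgeR adjusted p = 2.06e-08). Trit1, which attaches the isopentenyl group, fell from 0.812 ± 0.0452 to 0.397 ± 0.102 (SD, n = 2 each, edgeR adjusted p = 9.65e-07).

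All 7 tested genes of the list of tRNA adenosine methyltransferases, demethylases and deaminases fell. Trmt6, a subunit of the N1-methyladenosine methyltransferase, fell from 0.806 to 0.361, and Alkbh1, an N1-methyladenosine demethylase, from 0.591 to 0.176. All 29 tested genes of other modification enzymes fell, among them Wdr6 (0.670 to 0.346) and Nsun2, a cytosine methyltransferase (0.649 to 0.248). The same was true of 17 of 17 genes of tRNA processing and export, with Clp1 (0.755 to 0.440) and Pop5 (0.718 to 0.239), and of 17 of 17 genes of RNA polymerase III and its factors, with Gtf3c4 (0.784 to 0.375) and Gtf3c2 (0.690 to 0.282). Among cytosolic aminoacyl-tRNA synthetases 8 of 9 fell, with Yars (0.535 to 0.233) and Aars (0.726 to 0.379). The exception was the methionine enzyme Mars1, at 0.259 and 0.218 (edgeR adjusted p = 0.279). In gene coverage, limma called 1 of 34 other modification enzymes higher and 2 lower. It called 4 of 19 processing and export genes higher and 1 lower. For RNA polymerase III and its factors it was 0 and 3 of 20, and for synthetases 0 and 6 of 10. Over all genes the shares were 9.15% higher and 12.4% lower.

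The EPSC comparison was made to test a targeted demethylation system, and tRNA genes were not its target. Of the 101 sites, 67 in 56 genes were in the EPSC table of 19342 sites. Among sites listed in both siNC libraries, 47 of 57 tRNA gene sites (82.5%) were also in EPSC, against 29.6% of all. The 5′ sites of pairs were found more fully than the 3′ sites: 25 of 25 against 11 of 25. In the pairs 21 nt apart this was 18 of 18 against 5 of 18, and in serine pairs 7 of 7 against 6 of 7. No source used here states a read minimum for the EPSC table, and the share of 3′ sites that fell under any such minimum was not measured.

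Levels at most shared sites lay close in the 2 cell types. Over 43 tRNA gene sites with enough reads in both siNC libraries and sgCtrl, the median difference, sgCtrl minus siNC, was -0.0184, and 32 sites (74.4%) lay within 0.1 of each other. Over all 8033 such sites the median difference was -0.0421 and 65.0% lay within 0.1. The level was lower in sgCtrl at 26 tRNA gene sites (60.5%) and higher at 17, against 68.2% lower over all such sites. Every tRNA gap beyond 0.1 was lower in sgCtrl, and the largest rise was 0.0672, at the 3′ site of n-TMcat10. Selenocysteine n-TUtca2 was at 0.993 in sgCtrl (95% Wilson interval 0.988 to 0.995) and at 0.987 in sgGata6 (0.978 to 0.992), from 2558 and 1051 reads. The largest gaps were at the 5′ sites of n-TNgtt1 (0.884 in siNC, 0.654 in sgCtrl) and n-TRcct1 (0.787 and 0.575), the latter from 275 sgCtrl reads. The 2 sites of n-TSgct4 kept the reversed order in EPSC, at 0.133 against 0.345 in sgCtrl and 0.0855 against 0.234 in sgGata6. These are different experiments and were not tested against each other.

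Between sgGata6 and sgCtrl, 46 tRNA gene sites had at least 20 reads in both pools. None passed Fisher's exact test (0 called, 5 at an unadjusted p under 0.05, of which 2 were higher and 3 lower). Over all 10185 tested sites 0.275% were called, and 1197 had an unadjusted p under 0.05. The test compares pooled libraries, not conditions. The median difference was -0.0217, with 17 sites higher in sgGata6 and 29 lower. Over all tested sites it was -0.00906, with 4714 higher and 5408 lower. The lowest p was at the tryptophan gene n-TWcca7, with 13 of 33 reads unconverted in sgCtrl and 5 of 39 in sgGata6 (Fisher's exact test, two-sided, adjusted p = 0.242). Arginine n-TRacg6 had 0.303 of 509 reads (95% Wilson interval 0.264 to 0.344) and 0.375 of 291 (0.321 to 0.431). For n-TKctt8 the levels were 0.974 and 0.986, and for the 5′ site of n-TStga1 0.973 and 0.944. At these depths, a difference at most single sites was not detectable unless it was large.

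The number of tRNA reads differed more than the levels. At the 60 tRNA gene sites with at least 20 sgCtrl reads, A+G reads summed to 9269 for sgCtrl and to 4422 for sgGata6, and the ratio of these sums was 0.477. The median ratio per site was 0.503, and 58 of 60 sites had fewer reads in sgGata6. Over all 11226 such sites the median ratio was 1.17, and 33.6% had fewer reads in sgGata6. For n-TUtca2 the counts were 2558 and 1051, for n-TRacg6 509 and 291, for the 5′ site of n-TStga1 487 and 214, and for n-TKctt8 190 and 72. The lowest ratio, 0.1, was at n-TKctt25, with 20 and 2 reads, and the highest, 1.18, at n-TWcca7, with 33 and 39. As a share of all A+G reads in the table, tRNA genes held 0.972% in sgCtrl and 0.429% in sgGata6, and without n-TUtca2 0.707% and 0.328%. With 1 pooled value per group this difference has no replicate check. The libraries were made from purified mRNA, and how much tRNA the purification left in each pool was not measured.

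**Figure D5:**
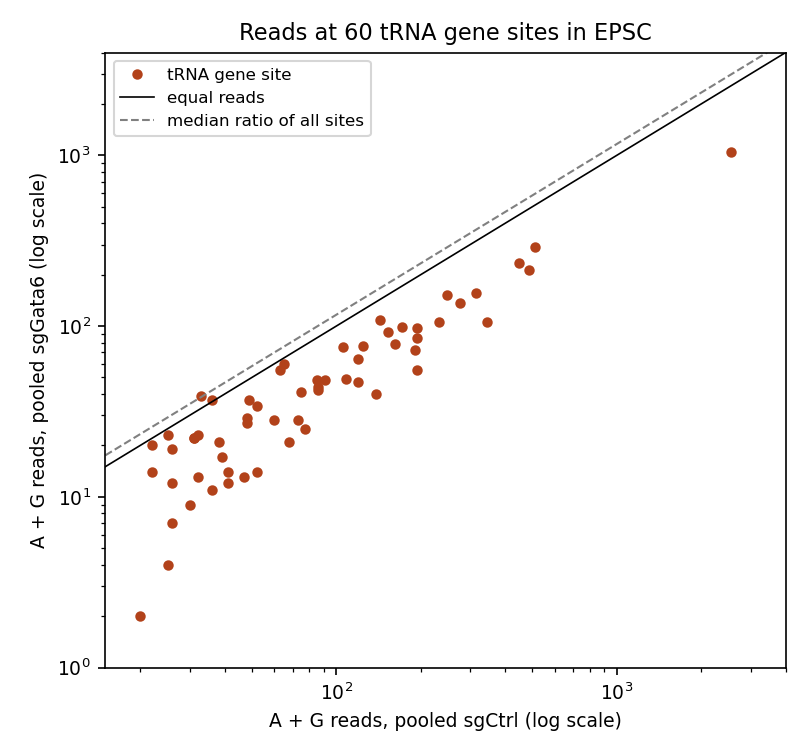
A+G reads at the 60 tRNA gene sites with at least 20 reads in sgCtrl, pooled sgGata6 against pooled sgCtrl, both on log axes, with lines for equal reads and for the median ratio of all sites (1.17). The points lie below equality at 58 of the 60 sites.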

How the data were processed

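The members, lists and classes were chosen with earlier results of these data known. GLORI libraries were made from purified mRNA, per the labels' protocols, and the submitters' processing notes name mm39; no source used here names the aligner or the caller. The authors deposited, for each TBLC library, counts of A and A+G reads per called site, the level as a fraction, a p-value and adjusted p-value, and per gene a conversion rate (fraction) and a coverage signal, per the file headers. The authors' p-values were only described: the highest adjusted value in a list was 0.00400. The deposited EPSC counts are pooled per group and were compared with Fisher's exact test; 2 coverage columns were not used.

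Sites took their gene from the lists, and EPSC rows were matched on chromosome, position and strand. Names were counted in a GRCm38.p6 table of 408 tRNA genes (71 of the 76 found; no coordinates taken). For levels, the quasi-likelihood test of edgeR 4.0.16 (R 4.3.3) took A and G counts with a term per library, over sites with a minimum of 20 A+G reads in every TBLC library, and sums of these per gene; coverage with limma 3.58.1. P-values were adjusted by Benjamini-Hochberg over the whole table, at 0.05. Alternatives were other read minimums, limma on log2 odds (0.5 added), DESeq2 1.42.0, a replicate block, no centring, a pseudocount of 1, and leaving out each library. The fits were tested on simulated data. Wilson intervals describe only counting error: no molecular identifiers were counted. The labels do not say that the replicate numbers pair the libraries, so the main fits had no replicate block.

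Named with values were genes with a site in all 4 libraries, the most read gene of each other amino acid, every called gene, and for each list the 2 enzymes with the lowest p. The level classes, the comparison with mitochondrial tRNA genes the near-threshold site n-TSgct6 and the lowest read ratio, at n-TKctt25, were chosen after their values were seen. Tables were joined in Python 3.11.15 (pandas 2.3.3, numpy 2.4.6), Fisher's test came from scipy 1.17.1, and figures from matplotlib 3.10.9.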

Additional observations from a re-analysis of the deposited data

How the results depend on the processing

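The sites called higher after siVirma numbered 5; with a minimum of 50 reads 3 and with DESeq2 2 were called, and leaving out single libraries gave 1 to 3. The site called lower, 1, gave 0 under each of these settings, leave-one-out included. The 4 genes called higher became 2 with 50 reads and 1 with DESeq2, and 1 to 3 without single libraries; limma called 1 gene lower. Counts with no minimum of reads, and with the replicate block, which left 6 called sites and 4 called genes, did not differ. The median difference of the tRNA gene sites stayed above 0 under every one of these settings, from 0.0102 to 0.0281. Of the genes for tRNA enzymes, 80 of 81 were called lower and 43 of 44 with 50 reads, because fewer were tested. Coverage called 3 tRNA genes higher and 1 lower; uncentred 8 and 0, with the replicate block 7 and 3, and without single libraries 0 to 10 higher and 0 to 10 lower. The causes were not tested. No tRNA gene site was called in EPSC under other read minimums. Depth is a limit too: 5 of the 52 sites in all 4 libraries fell under 20 reads, and calls at levels near 1 rest on a few G reads.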
